A study of Mus musculus with 6 samples.

Results

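The genes described here are 9 established targets of transforming growth factor beta (TGF-beta), of the bone morphogenetic proteins (BMPs) and of the SMAD proteins that carry their signals. They are Smad6, Smad7, Skil, Ctgf, Cyr61, Tgfbi, Pmepa1, Id1 and Id3. They were chosen by name as known targets, with earlier results of these data known. All 9 were found among the 17739 gene symbols of the deposited table. The RNA was that of epithelial organoids from the mammary glands of FVB mice at lactation day 1, 1 library from each mouse. Organoids are fragments of epithelium freed from the gland by enzymes and enriched by short centrifugation. The groups were a conditional knockout of Nmi (genotype Nmi-/-, 3 mice) and wild type (3 mice). Neither the promoter that drove the deletion nor the exons it removed are named in the labels. The product of Nmi is induced by interferon and binds STAT and Myc proteins, and the study asked how losing it leads to excess growth of the epithelium.

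TGF-beta and BMP ligands bind paired receptor kinases at the cell surface, which phosphorylate receptor SMADs. These join SMAD4, enter the nucleus and switch genes on or off. TGF-beta acts mainly through SMAD2 and SMAD3, and BMPs act mainly through SMAD1, SMAD5 and SMAD9. In the mammary gland TGF-beta is known for restraining ductal growth and milk formation. Among the targets, Smad6 and Smad7 encode inhibitory SMADs and Skil the corepressor SnoN, all of which act back on the pathway. Pmepa1 encodes a membrane protein that holds receptor SMADs away from the receptor. Ctgf and Cyr61 encode secreted matrix-associated proteins of the CCN family and are also targets of YAP and TEAD. Tgfbi encodes an adhesion protein of the extracellular matrix. Id1 and Id3 encode helix-loop-helix proteins that block DNA binding by their partners and are classical BMP targets.

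Values are FPKM, fragment numbers scaled to gene length and to the total of the library, which puts different genes on the same scale. Orders of level between genes given here are orders of listed FPKM. An entry can misstate the level of its gene, as the Gapdh values below show. FPKM sums ran from 441736 to 509453 in knockout libraries and from 379478 to 480889 in wild-type libraries. The 19 milk protein genes of a list in the table held 64.5% to 77.3% of the sum in knockout libraries and 49.1% to 71.5% in wild-type libraries. Milk transcripts thus took most of 5 of the 6 libraries. Their share was highest in knockout replicate 3 and lowest in wild-type replicate 1, called the end libraries below. The epithelial markers Krt8 and Krt18 averaged 592 ± 392 and 585 ± 352 FPKM in the knockout (SD, n = 3). In wild type they averaged 1030 ± 443 and 1123 ± 462 FPKM (SD, n = 3). The groups overlapped for both genes, and neither passed the threshold (adjusted p = 0.768 for both by limma). Of 10 luminal markers, 8 had fold changes below 0 and 2 above, and none passed. Nmi itself was listed at 0.188, 0.547 and 0.564 FPKM in knockout replicates 1, 2 and 3 and at 4.60, 2.82 and 2.32 FPKM in wild-type replicates 1, 2 and 3, lower in every knockout library. Its log2 fold change was -1.54 (SE 0.23), with an adjusted p of 0.372 by limma with Benjamini-Hochberg adjustment. The pseudocount of 1 damps this value, which was -2.69 with a pseudocount of 0.1. Gapdh, abundant in nearly every cell, was listed at 0 to 0.0769 FPKM, so low entries here do not show that a gene is off.

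RefSeq promoter sequences on GRCm38.p6 were matched for 4 of the 9 genes, Smad6, Cyr61, Tgfbi and Id3. The 250 bases before the RefSeq start are shown for Cyr61, the target with the widest spread among knockout libraries, and for Id3, the BMP target that entered the test. Gene spans given further on are from GENCODE, whose starts can differ. The GENCODE span of Id3 begins at 136143497, so its printed bases lie within that span. The last bases of the Tgfbi promoter also lie within its GENCODE span. Capitals mark letters that SMAD and TEAD proteins are known to bind. These are the SMAD box CAGAC or its reverse GTCTG, the GC-rich SMAD site GGCGCC and the TEAD site GGAATG or its reverse CATTCC, searched on both strands. For Smad6 the 30 bases around its start are shown, because a GTCTAGAC palindrome, the optimal SMAD3 and SMAD4 site, lies across it.
Cyr61 (chr3:145649986-145650235, minus strand): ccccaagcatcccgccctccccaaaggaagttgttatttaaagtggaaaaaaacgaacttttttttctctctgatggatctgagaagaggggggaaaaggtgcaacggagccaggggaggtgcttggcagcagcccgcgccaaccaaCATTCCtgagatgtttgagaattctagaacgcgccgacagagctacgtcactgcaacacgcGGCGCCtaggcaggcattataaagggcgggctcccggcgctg
Id3 (chr4:136143572-136143821, plus strand): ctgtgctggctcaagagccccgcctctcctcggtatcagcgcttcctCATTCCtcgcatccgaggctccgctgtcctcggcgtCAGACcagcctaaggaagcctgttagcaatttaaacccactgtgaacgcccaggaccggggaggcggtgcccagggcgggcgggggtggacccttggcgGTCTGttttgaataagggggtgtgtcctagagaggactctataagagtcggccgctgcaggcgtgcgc
Smad6 start (chr9:64022045-64022074, minus strand): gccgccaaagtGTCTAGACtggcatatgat

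With positions counted back from the RefSeq start, Cyr61 held 1 TEAD site at -103 and 1 GC-rich SMAD site at -42. Id3 held SMAD boxes at -167 and -68 and 1 TEAD site at -203. The Tgfbi promoter, on chromosome 13, held 2 SMAD boxes and 1 GC-rich site. In Smad6 the palindrome began at -4, and the 250 bases before the start held none of the other motifs. Of 32851 RefSeq promoters of the same length, 42.2% held a SMAD box, 9.59% the GC-rich site and 12.6% the TEAD site in the 250 bases before the start. The palindrome was present in 0.213% of them, counted over the whole window of the RefSeq table, which runs on past the start. The motifs do not overlap each other in the printed sequences. A match describes these letters and does not show binding.

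The levels of the 9 genes spanned a wide range. Ctgf was the most abundant, with a mean of 111 FPKM over the 6 libraries, which ranked 178 of 17739 genes. Cyr61 (46.7 FPKM), Pmepa1 (19.6 FPKM) and Skil (11.7 FPKM) followed. Smad7 had 2.70 FPKM, Id3 1.58 FPKM and Id1 0.813 FPKM, and Tgfbi and Smad6 were lowest, with 0.50 and 0.436 FPKM. Ctgf exceeded Cyr61 and Cyr61 exceeded Pmepa1 in 6 of 6 libraries, although their ranges overlapped between libraries. Pmepa1 exceeded Skil in 5 of 6 libraries. Between Skil and Smad7 the ranges did not overlap. Smad7 exceeded Id3, and Id3 exceeded Id1, in 6 of 6 libraries, and Id1 exceeded Tgfbi in 5. Tgfbi and Smad6 did not differ in order, since Tgfbi was higher in 3 of 6 libraries.

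**Figure D1:**
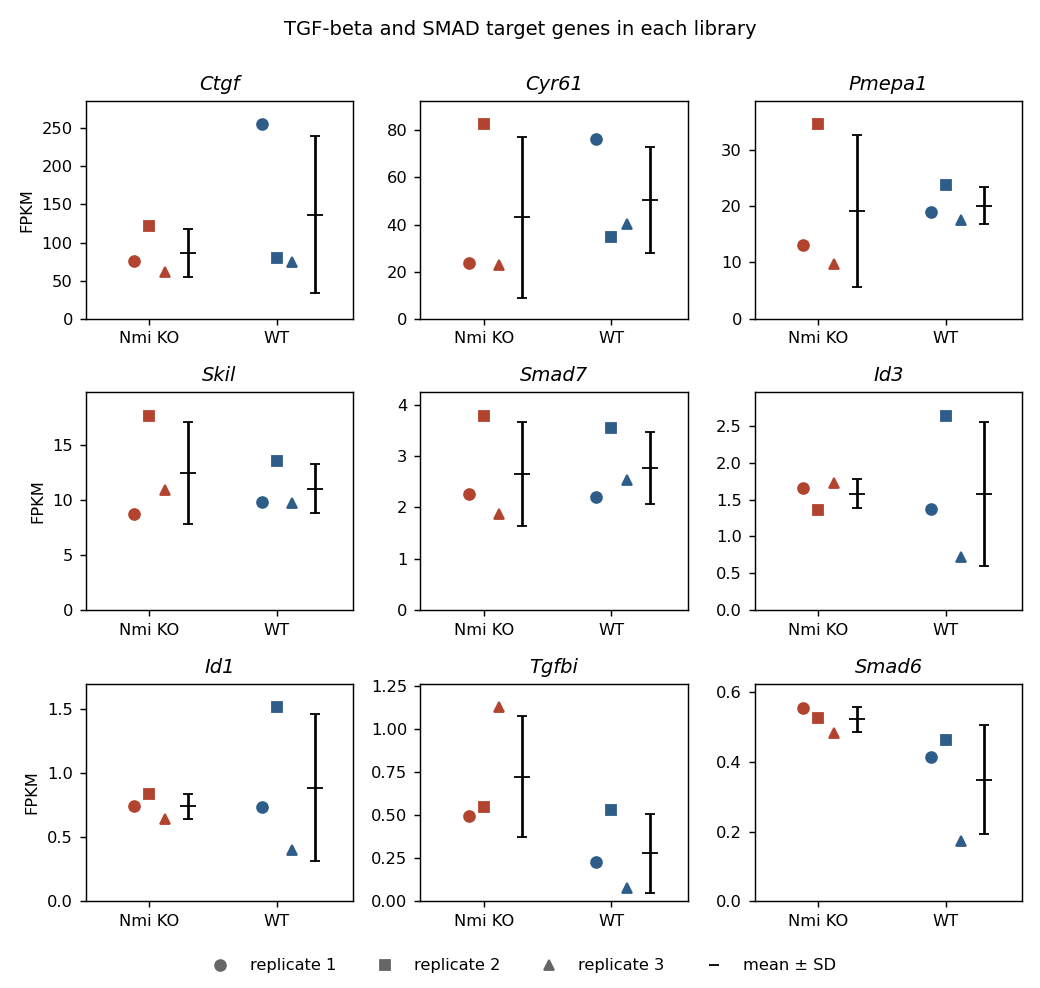
FPKM (y axis, from 0) of each of the 9 target genes in the 3 Nmi knockout libraries (left, red) and the 3 wild-type libraries (right, blue). Symbols give the replicate and bars the mean ± SD. With the values as deposited, Smad6 alone has all knockout libraries (0.484 to 0.556 FPKM) above all wild-type libraries (0.173 to 0.463 FPKM). The same holds for 1.46% of all 17739 genes, and Smad6 is under 1 FPKM in every library.

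No target gene passed the test between the genotypes. In the fit across 9767 genes with at least 1 FPKM in at least 3 libraries, 0 genes were higher in the knockout (0.0%) and 0 were lower (0.0%) at an adjusted p under 0.05 (limma with Benjamini-Hochberg adjustment). Before adjustment, p was under 0.05 for 18 genes that were higher (0.184%) and 112 that were lower (1.15%), with no target gene among them. Of the 9 targets, 6 passed the filter on low values, namely Ctgf, Cyr61, Pmepa1, Skil, Smad7 and Id3. Their median log2 fold change was -0.16, against -0.21 over all genes tested. 4 of the 6 had a fold change below 0, where 81.7% of all genes tested did. All 6 had overlapping groups. Of the genes tested, 0.778% had every knockout library above every wild-type library, and 3.83% had every one below. For Id1, Tgfbi and Smad6 the exact permutation test of each gene alone was used, which cannot go below p = 0.1 with 3 against 3 mice. Because the libraries are bulk samples, fewer cells of a type and less RNA per cell cannot be told apart.

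Among the feedback genes, Smad7 and Skil had the fold changes closest to 0. Smad7, which blocks the receptors of both TGF-beta and BMP, was listed at 2.26, 3.79 and 1.87 FPKM in knockout replicates 1, 2 and 3, against 2.20, 3.55 and 2.54 FPKM in wild-type replicates 1, 2 and 3. The highest knockout library and the highest wild-type library lay close together, and the groups overlapped. Between knockout and wild type this was a log2 fold change of -0.07 (SE 0.25; 95% confidence interval: -0.61 to 0.48; adjusted p = 0.912 by limma), and it was 0.11 after trimmed-mean rescaling. The gene spans 75367529 to 75395935 on the plus strand of chromosome 18 (GRCm38).

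Skil was listed at 8.70, 17.6 and 10.9 FPKM in knockout replicates 1, 2 and 3, against 9.75, 13.5 and 9.66 FPKM in wild-type replicates 1, 2 and 3. Replicate 2 of each genotype was the highest of its group, and the other 4 libraries lay between 8.70 and 10.9 FPKM. Between knockout and wild type this was a log2 fold change of 0.12 (SE 0.29; 95% confidence interval: -0.52 to 0.76; adjusted p = 0.860 by limma). Without knockout replicate 2 it was -0.14. Skil lies on chromosome 3 at 31095058 to 31122577, on the plus strand.

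Pmepa1 was listed at 13.1, 34.6 and 9.80 FPKM in knockout replicates 1, 2 and 3, against 18.9, 23.8 and 17.6 FPKM in wild-type replicates 1, 2 and 3. The knockout held both the highest and the lowest libraries, and all wild-type values fell between them. Between knockout and wild type this was a log2 fold change of -0.26 (SE 0.40; 95% confidence interval: -1.13 to 0.62; adjusted p = 0.800 by limma). It was -0.77 without knockout replicate 2 (unadjusted p = 0.0225, adjusted p = 0.403 by limma, the lowest of the 13 alternatives tried) and 0.09 without knockout replicate 3. With knockout replicate 2 left out, 1187 of the 9767 genes tested had an unadjusted p under 0.05. The gene lies on chromosome 2 at 173224458 to 173276533, on the minus strand.

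Smad6, which acts mainly against BMP signals, was listed at 0.556, 0.527 and 0.484 FPKM in knockout replicates 1, 2 and 3, against 0.413, 0.463 and 0.173 FPKM in wild-type replicates 1, 2 and 3. All knockout libraries lay above all wild-type libraries, the only target gene of which this was so with the values as deposited. The gap between the lowest knockout library and the highest wild-type library was small, and wild-type replicate 3 lay well under the others. The means were 0.522 ± 0.0359 FPKM in the knockout and 0.350 ± 0.155 FPKM in wild type (SD, n = 3 each), with an exact permutation p of 0.1, the smallest possible (two-sided). Of the 7972 genes below the filter, 2.3% had all knockout libraries above all wild-type libraries, and 1.46% of all 17739 genes did; 3.61% of all genes had every knockout library below every wild-type library, none of them a target. The groups also did not overlap after trimmed-mean rescaling, quantile normalization or scaling to the FPKM sum outside the milk proteins, under which 3.95%, 2.86% and 3.15% of all genes lay apart on that side. On the log2(FPKM + 1) scale, which understates changes of low genes, the difference was 0.18, but 0.08 without wild-type replicate 3. When all genes were fitted without a filter, Smad6 had an unadjusted p of 0.0996 and an adjusted p of 0.829 by limma. The gene lies on chromosome 9 at 63953076 to 64022059, on the minus strand.

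The fold changes of the CCN genes had the largest standard errors of the 6 targets tested. Ctgf was listed at 76.1, 122 and 60.8 FPKM in knockout replicates 1, 2 and 3, against 256, 79.4 and 74.4 FPKM in wild-type replicates 1, 2 and 3. Wild-type replicate 1 was the highest of all libraries, and the other wild-type libraries lay within the knockout range. Between knockout and wild type this was a log2 fold change of -0.47 (SE 0.47; 95% confidence interval: -1.50 to 0.56; adjusted p = 0.768 by limma), and it was 0.10 without wild-type replicate 1. Ctgf lies on chromosome 10 at 24595442 to 24598683 on the plus strand, and the non-coding gene Gm15270 overlaps it on the other strand. Reads of the pair cannot be told apart unless the counting used strand, which is not given in the sources used here.

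Cyr61 was listed at 23.5, 82.7 and 22.8 FPKM in knockout replicates 1, 2 and 3, against 76.2, 34.8 and 40.4 FPKM in wild-type replicates 1, 2 and 3. Knockout replicate 2 and wild-type replicate 1 were high, and the other knockout libraries were lower than every wild-type library. Between knockout and wild type this was a log2 fold change of -0.41 (SE 0.48; 95% confidence interval: -1.47 to 0.65; adjusted p = 0.772 by limma). Without knockout replicate 2 it was -1.01 (unadjusted p = 0.0149, adjusted p = 0.403 by limma, the lowest of the 13 alternatives tried). In that setting 1187 of the 9767 genes tested had an unadjusted p under 0.05. The fold change lay between -0.12 and -0.07 without knockout replicate 1, knockout replicate 3 or wild-type replicate 1. Cyr61 lies on chromosome 3 at 145646976 to 145649981, on the minus strand.

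Tgfbi was listed at 0.493, 0.546 and 1.13 FPKM in knockout replicates 1, 2 and 3, against 0.229, 0.528 and 0.0766 FPKM in wild-type replicates 1, 2 and 3. Knockout replicate 3 was the only library at 1 FPKM or more, and the groups overlapped narrowly through wild-type replicate 2. The means were 0.722 ± 0.352 FPKM and 0.278 ± 0.230 FPKM in knockout and wild type (SD, n = 3 each, exact permutation p = 0.2, two-sided). With trimmed-mean rescaling, or with each library scaled outside the milk proteins, the groups no longer overlapped, as for 3.95% and 3.15% of all genes under those scalings, and after quantile normalization they did overlap. In the fit of all genes without a filter the unadjusted p was 0.0555 and the adjusted p 0.829 by limma. The gene lies on chromosome 13 at 56609523 to 56639562, on the plus strand.

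The BMP targets Id1 and Id3 shared their highest and their lowest library. Id3 was listed at 1.65, 1.36 and 1.73 FPKM in knockout replicates 1, 2 and 3, against 1.37, 2.64 and 0.718 FPKM in wild-type replicates 1, 2 and 3. Id1 was listed at 0.746, 0.837 and 0.639 FPKM in knockout replicates 1, 2 and 3, against 0.739, 1.52 and 0.403 FPKM in wild-type replicates 1, 2 and 3. Wild-type replicate 2 was highest and wild-type replicate 3 lowest for both genes, so every knockout library lay inside the wild-type range. The log2 fold change of Id3 was 0.07 (SE 0.26, 95% confidence interval -0.50 to 0.64, adjusted p = 0.913 by limma), and -0.19 without wild-type replicate 3. Id1 had means of 0.741 ± 0.0995 FPKM in the knockout and 0.886 ± 0.571 FPKM in wild type (SD, n = 3 each, exact permutation p = 0.9, two-sided). Id1 lies on chromosome 2 at 152736251 to 152737410 and Id3 on chromosome 4 at 136143497 to 136145755, both on the plus strand.

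Knockout replicate 2 was the highest library for 4 of the 9 genes (Cyr61, Pmepa1, Skil and Smad7), and knockout replicate 3 the lowest for 4 (Ctgf, Cyr61, Pmepa1 and Smad7). Wild-type replicate 3 was the lowest for Id1, Id3, Tgfbi and Smad6. The share of all genes with these extremes was not counted. Knockout replicate 3, with the highest milk share, was also lowest for the summed luminal and endothelial markers. The same held for the summed ligands, receptors, SMADs and cofactors, and ligand regulators described below. The sum of the other targets was lowest in knockout replicate 1. The summed level of the 12 basal and myoepithelial markers was 528, 1695 and 522 FPKM in knockout replicates 1, 2 and 3 and 1300, 1060 and 621 FPKM in wild-type replicates 1, 2 and 3. The sum was thus highest in knockout replicate 2 and lowest in knockout replicate 3, as for Cyr61 and Pmepa1, but of the single markers only Tagln had both extremes there. Acta2 (724 FPKM) and Tagln (256 FPKM) were the largest terms in knockout replicate 2. Acta2, Krt17, Myh11, Mylk and Cnn1 were also highest in that library but lowest in knockout replicate 1. Krt5, Krt14, Trp63, Oxtr, Itga6 and Itgb4 were highest in wild-type replicate 1. The 10 luminal markers summed to 3449, 5045 and 1653 FPKM in knockout replicates 1, 2 and 3 and to 6995, 5031 and 3580 FPKM in wild-type replicates 1, 2 and 3. The sum of the 10 fibroblast markers ran from 57.7 to 150 FPKM in the knockout and from 51.8 to 118 FPKM in wild type, and that of the 10 endothelial markers from 83.5 to 165 FPKM and from 89.3 to 182 FPKM in knockout and wild type. The fibroblast sum was lowest in wild-type replicate 3. Their part in the values of the target genes was not tested.

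**Figure D2:**
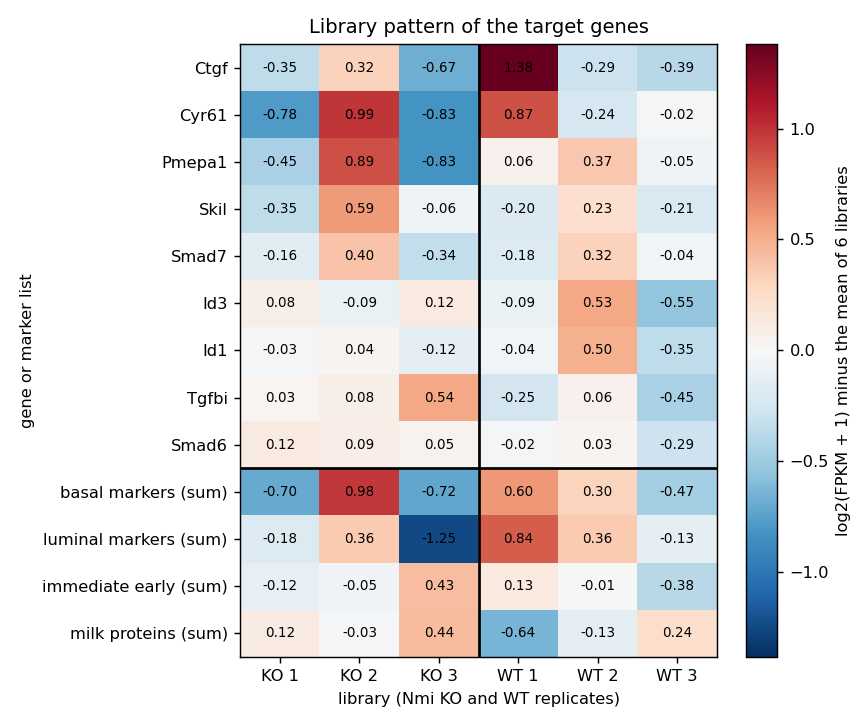
Level of each target gene, and of 4 summed gene lists under the line, as log2(FPKM + 1) minus its mean over the 6 libraries (color and printed value), with the 3 Nmi knockout libraries left of the 3 wild-type libraries. Knockout replicate 2 has the highest values of Cyr61 (0.99) and Pmepa1 (0.89) and of the basal marker sum (0.98), and wild-type replicate 1 that of Ctgf (1.38).

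Markers of other cell types were also measured. The most abundant fibroblast markers were Postn, with 44.1 ± 30.5 FPKM in the knockout and 43.4 ± 16.6 FPKM in wild type, and Col3a1, with 17.4 ± 5.73 and 14.96 ± 6.61 FPKM. The endothelial markers Cldn5 and Cdh5 averaged 33.5 and 26.9 FPKM in the knockout and 42.6 and 29.9 FPKM in wild type. The sum of 10 macrophage markers lay between 11.5 and 26.8 FPKM in the knockout and between 12.9 and 17.2 FPKM in wild type, with Cd68 and Lyz2 the most abundant at 4.67 and 6.71 FPKM in the knockout and 6.90 and 4.11 FPKM in wild type. All 8 lymphocyte markers in the table were under 1 FPKM in every library; Cd4 and Nkg7 had the highest means over all 6 libraries, with of 0.121 and 0.0578 FPKM in the knockout and 0.0203 and 0.0438 FPKM in wild type, and Cd3e was at 0 in the 3 wild-type libraries. Among 9 adipocyte markers, Adipoq was at 0 in 2 libraries of each genotype, while Fabp4 and Lpl, which other cells also express, averaged 287 and 133 FPKM in the knockout and 461 and 78.5 FPKM in wild type.

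Immediate early genes are known to respond to the dissociation of tissue. The sum of 15 of them was 787, 824 and 1150 FPKM in knockout replicates 1, 2 and 3 and 934, 848 and 654 FPKM in wild-type replicates 1, 2 and 3. It was highest in knockout replicate 3, where Ctgf, Cyr61, Pmepa1 and Smad7 were lowest. The most abundant of them, Klf6 and Ier3, averaged 143 and 95.2 FPKM in the knockout and 162 and 185 FPKM in wild type. Fold changes of 13 of the 15 were above 0, the side opposite to 81.7% of all genes tested. In 2 of them, Jun and Zfp36, all knockout libraries lay above all wild-type libraries, as in 0.778% of all genes tested. Egr1 alone had an unadjusted p under 0.05, on the higher side, and none passed the adjusted threshold (smallest adjusted p = 0.768, limma). The part of these genes in the target values was not tested.

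Ratios of related genes within a library, taken with no pseudocount, do not change when the library is rescaled. The ratio of Smad6 to Smad7 was 0.245, 0.139 and 0.259 in knockout replicates 1, 2 and 3, against 0.188, 0.13 and 0.0679 in wild-type replicates 1, 2 and 3. Smad7 was thus listed higher than Smad6 in every library. The log2 ratio differed by 0.80 between knockout and wild type, with overlapping groups (exact permutation p = 0.2, two-sided; adjusted over the 3 ratios, 0.6), by 0.40 without wild-type replicate 3 and by 0.25 with a pseudocount of 1 in the ratio. The ratio of Ctgf to Cyr61 was 3.23, 1.48 and 2.67 in knockout replicates 1, 2 and 3, against 3.35, 2.28 and 1.84 in wild-type replicates 1, 2 and 3, a difference of -0.05 on the log2 scale (exact permutation p = 0.9, adjusted 0.9). The ratio of Id1 to Id3 was 0.451, 0.618 and 0.369 in knockout replicates 1, 2 and 3, against 0.540, 0.574 and 0.561 in wild-type replicates 1, 2 and 3. The wild-type values lay close together and the knockout values on both sides of them, and the difference was -0.25 on the log2 scale (exact permutation p = 0.4, adjusted 0.6). It was -0.45 without knockout replicate 2, -0.08 without knockout replicate 3 and -0.14 with a pseudocount of 1. In all 3 ratios were compared, and none reached even the smallest p that the design allows, 0.1.

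**Figure D3:**
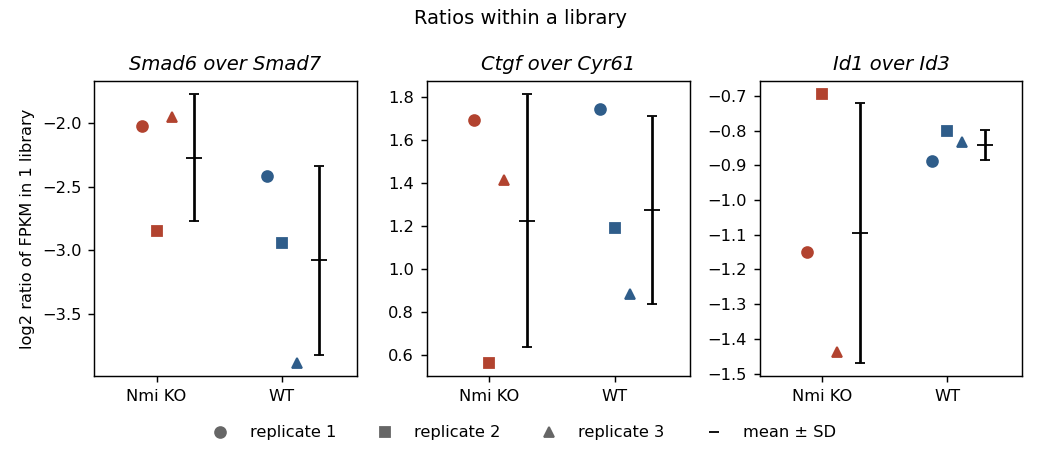
Log2 ratio of FPKM of 2 related target genes in the same library (y axis), for the 3 Nmi knockout libraries (left) and the 3 wild-type libraries (right); bars are the mean ± SD. The groups overlap in all 3 panels, and Id1 over Id3 has an SD of 0.374 in the knockout and 0.0442 in wild type on the log2 scale.

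For the remainder of the pathway, 5 lists held 93 genes. The table had 92 of them, and 58 entered the fit. None of the 58 passed the adjusted threshold in either direction. At an unadjusted p under 0.05 there was 1, the YAP and TEAD target Amotl2, on the lower side, where 1.15% of all genes tested lay (0.184% on the higher side). Without knockout replicate 2 there were 10 such genes, where 1187 of all 9767 genes tested were under 0.05. Without wild-type replicate 3 there were 3, where 632 of all 9767 genes were. There were 0 without knockout replicate 1, knockout replicate 3 or wild-type replicate 1, where 180, 59 and 25 of all genes were. No gene of the table passed the adjusted threshold when any 1 library was left out. The median log2 fold change of the 58 genes was -0.25, against -0.21 over all genes, and 50 were below 0.

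Among the ligands, 7 of 20 entered the fit, and all 7 had fold changes below 0, the side on which 81.7% of all genes lay. Tgfb3, which is known to rise at the end of lactation, was the most abundant, with 29.1 ± 13.3 FPKM in the knockout and 31.9 ± 3.37 FPKM in wild type (SD, n = 3 each). Inhbb, which encodes the activin beta B chain, had 18.9 ± 7.51 and 20.0 ± 6.33 FPKM in knockout and wild type. Tgfb2 gave -0.26 on the log2 scale (SE 0.34, adjusted p = 0.777 by limma). The stress-induced ligand gene Gdf15 was listed at 2.30, 1.85 and 1.68 FPKM in knockout replicates 1, 2 and 3, against 11.4, 4.75 and 1.04 FPKM in wild-type replicates 1, 2 and 3. Its log2 fold change was -0.84 (SE 0.50, adjusted p = 0.768 by limma), and it was -0.22 without wild-type replicate 1 and -1.52 without wild-type replicate 3. Bmp2 and Bmp4, which activate Id genes, stayed under 1 FPKM in every library.

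Among the receptors, 10 of 14 entered the fit and 9 had fold changes below 0, with a list median of -0.15. Tgfbr2, the receptor that binds TGF-beta first, had 44.5 ± 12.1 FPKM in the knockout and 54.2 ± 18.1 FPKM in wild type. Its partner kinase gene Tgfbr1 had 14.6 ± 3.32 FPKM in the knockout and 15.2 ± 2.14 FPKM in wild type. Acvr1, a BMP receptor gene, had a fold change of -0.37 (SE 0.32) on the log2 scale and Bmpr2, another, of -0.23 (SE 0.28), neither past the threshold (adjusted p = 0.768 and 0.774 by limma). Acvr1 was at -0.69 without knockout replicate 2 and at -0.07 without knockout replicate 3.

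Of the 15 SMADs and cofactors 13 entered the fit, and their median log2 fold change was -0.34, the lowest of the 5 lists. Smurf1, a ubiquitin ligase that marks SMADs and receptors for breakdown, had -0.47 (SE 0.33). Ski, which encodes a corepressor related to SnoN, had -0.44 (SE 0.31). Without knockout replicate 2 they were at -0.79 and -0.74, and without knockout replicate 3 at -0.13 and -0.14. The corepressor gene Tgif1 was the most abundant, with 51.4 ± 20.8 FPKM in the knockout and 61.1 ± 12.9 FPKM in wild type, and the phosphatase gene Ppm1a had 17.5 ± 3.4 and 22.5 ± 6.39 FPKM in knockout and wild type. After trimmed-mean rescaling the fold change of all genes centred on 0.01 in place of -0.21, so values near -0.2 lie at the middle of all genes.

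Among regulators of ligands, 11 of the 18 in the table entered the fit, with a median log2 fold change of -0.25. Thbs1, which encodes a matrix protein that activates latent TGF-beta, had 186 ± 115 FPKM in the knockout and 245 ± 51.3 FPKM in wild type. Knockout replicate 3, at 53.2 FPKM, lay far under the other 5 libraries (191 to 293 FPKM). Ltbp1 and Ltbp3, which encode proteins that tether latent TGF-beta to the matrix, gave -0.58 (SE 0.40) and -0.47 (SE 0.32) on the log2 scale, with adjusted p = 0.768 for both by limma. Ltbp1 was at -1.08 without knockout replicate 2, and without knockout replicate 3 Ltbp1 was at -0.11 and Ltbp3 at -0.10.

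Of 26 other targets 18 entered the fit, with a median log2 fold change of -0.20. Amotl2, which encodes an angiomotin-like junction protein, was listed at 4.50, 8.74 and 2.96 FPKM in knockout replicates 1, 2 and 3, against 18.4, 6.77 and 10.2 FPKM in wild-type replicates 1, 2 and 3. The groups overlapped through knockout replicate 2 and wild-type replicate 2. Its log2 fold change was -0.997 (SE 0.39, unadjusted p = 0.0260, adjusted p = 0.768 by limma), and leaving out 1 library gave between -1.35, without knockout replicate 2, and -0.65, without wild-type replicate 1. With knockout replicate 3 also left out it was -0.35. Bhlhe40, a transcriptional repressor gene, had 0.58 (SE 0.39), and 0.26 without knockout replicate 3 and 0.22 without wild-type replicate 1. Acta2 and Tagln, contractile genes of myoepithelial cells that TGF-beta also induces, had 344 ± 329 and 141 ± 101 FPKM in the knockout and 354 ± 119 and 150 ± 61.2 FPKM in wild type. Acta2 was highest in knockout replicate 2, at 724 FPKM, as were Cyr61 and Pmepa1. In the Id family Id2, a gene outside the naming rule, was the most abundant, with 30.0, 9.36 and 16.2 FPKM in knockout replicates 1, 2 and 3 and 9.40, 22.6 and 19.9 FPKM in wild-type replicates 1, 2 and 3.

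**Figure D4:**
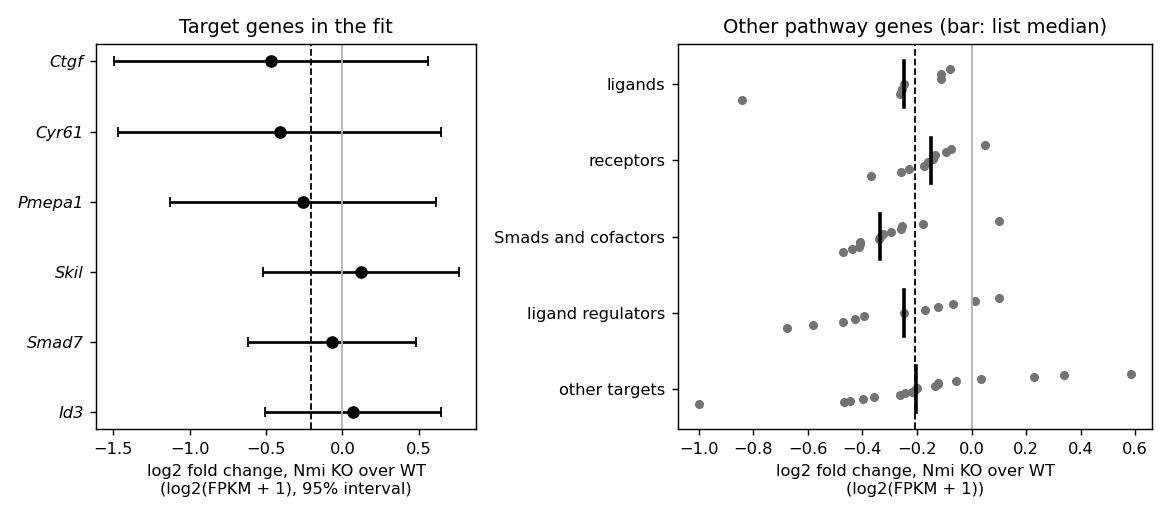
Log2 fold change of knockout over wild type on the log2(FPKM + 1) scale. Left, the 6 target genes in the fit with 95% confidence intervals, all of which include 0; right, the 58 tested genes of 5 pathway lists (points) with list medians (bars), and in both panels the median of all 9767 genes at -0.21 (dashed).

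For each target gene in the fit, the genes whose log2(FPKM + 1) was most like it over the 6 libraries were found among all 9767 genes. Skil was most like Bach1, a transcriptional repressor of oxidative stress genes (Pearson r 0.998, Spearman rho 1 over 6 libraries), and Rlf. Smad7 was most like the kinase-like gene Stk40 (r 0.998, rho 1) and Sec24a of the secretory coat. Pmepa1 was most like the DNA repair gene Xrcc1 (r 0.998, rho 1). Cyr61 was most like the autophagy gene Vmp1 (r 0.996, rho 1). Ctgf was most like Nol12 (r 0.997, rho 0.943) and Psip1. Id3 was most like Ppp6r2 (r 0.984, rho 0.943) and Bola1. Each match was picked as the highest among all 9767 genes over only 6 libraries. High r and rho are therefore due in part to the search, and shared regulation was not tested. The genes share libraries, depth and the milk share of each library, and the values describe these 6 libraries only.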

How the data were processed

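The deposited table holds FPKM values that the authors computed for 17739 gene symbols in 6 libraries. FastQC, TopHat, SAMtools and Cufflinks, and the builds mm10 and GRCm38, are named in the submitters' processing notes; no source used here gives their versions, the strand setting or the annotation. Each FPKM value divides by each library's total, so abundant milk transcripts lower all other values. Read counts were not recovered. Relative depth, taken as the commonest ratio between low values of 2 libraries, was 0.974 to 1.13 with wild-type replicate 1 as 1. The spread between mice set the precision.

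Genes with at least 1 FPKM in at least 3 libraries (9767) were compared as log2(FPKM + 1) with limma 3.58.1 in R 4.3.3, with an intensity trend, two-sided, with Benjamini-Hochberg adjustment over all of them and a threshold of 0.05. Single genes below the filter and ratios were compared by exact permutation over libraries. The fit was tested on simulated data. Each mouse has its own number in the labels, and nothing pairs the genotypes. Genes were named by rule: Nmi, the 9 targets, from each of 5 pathway lists the 2 smallest p and the 2 highest levels, from each marker list and the immediate early list the 2 highest, and the 2 genes most like each tested target (some are not reported here); the milk protein list was used as a sum. Bmp2, Bmp4, Id2, Adipoq, Cd3e, Jun, Zfp36 and Egr1 were added after their values were seen. Members and lists were chosen with earlier results of these data known. Coordinates are from GENCODE release M21 on GRCm38, where Ctgf and Cyr61 are named Ccn2 and Ccn1. BLAST 2.17.0 found no transcript of another gene at 95% identity over 50% of the length of any target's longest transcript. Alternatives were other scalings, a pseudocount of 0.1, no filter, no trend and leaving out libraries.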

Additional observations from a re-analysis of the deposited data

How the results depend on the processing

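No paired analysis was possible because the mouse numbers in the labels are all different. None of the 6 tested targets and 58 tested pathway genes passed the adjusted threshold under any of the 13 alternatives. Genes below the filter, among them Smad6, Tgfbi and Id1, entered only the alternative with no filter. None of them passed there. Over all genes 0 passed, except 1 without wild-type replicate 1 and knockout replicate 3 (Gm7367, outside the naming rule, log2 fold change 1.87, adjusted p = 0.0317 by limma). Genes at an unadjusted p under 0.05 numbered 130 as reported, 1187 without knockout replicate 2, 632 without wild-type replicate 3, 326 with no filter, 59 without knockout replicate 3, 78 without both end libraries and 25 without wild-type replicate 1; 13.8% of them were higher in the knockout as reported and 56.6% after trimmed-mean rescaling. The median of the 6 tested targets lay between -0.51 and 0.06 when 1 library was left out.

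Signs that turned belong to values with no call. Without both end libraries the log2 fold changes were 0.32 for Ctgf, 0.24 for Cyr61, 0.0585 for Pmepa1, 0.00538 for Acvr1, 0.13 for Bmpr2, 0.01998 for Ltbp1, 0.30 for Tgfb2 and -0.11 for Bhlhe40, and the log2 ratio of Ctgf to Cyr61 differed by 0.0917. After trimmed-mean rescaling, quantile normalization and scaling outside the milk proteins they were 0.114, 0.0986 and 0.0798 for Smad7 and 0.04896, 0.00963 and 0.0263 for Id1. Leaving out each library in turn gave -0.78 to 0.10 for Ctgf, -0.77 to 0.0946 for Pmepa1, -0.14 to 0.33 for Skil, -0.28 to 0.0870 for Smad7, -0.19 to 0.35 for Id3, -0.27 to 0.16 for Id1, -0.48 to 0.00699 for Bmpr2, -0.56 to 0.0566 for Tgfb2 and -0.28 to 0.28 for the log2 ratio of Ctgf to Cyr61. Where a sign turned, the cause was not tested. With 3 mice per group, standard errors of the 6 tested targets were 0.25 to 0.48 on the log2 scale, which limits the changes that can be detected.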
